A study of Mus musculus with 94 samples.

Results

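Epididymal white fat was compared between 6 mice that had been obese and were then returned to a low-fat diet for 12 weeks (regression mice) and 6 lean mice of the same age. These 12 poly(A) RNA libraries, each from its own mouse, were taken by their sample titles out of 94 libraries of epididymal and inguinal fat. All mice were male C57BL/6JBomTac, with no engineered allele named in the labels. Regression mice ate a high-fat diet for 18 weeks from 10 weeks of age and then the low-fat diet for 12 weeks, and the lean mice ate the low-fat diet throughout, so that both groups were 40 weeks old at the end. The obesity comparison used here for reference set 5 obese mice, killed at the end of the 18 weeks of high-fat diet, against 6 lean mice of their age. Libraries of a group are labelled as biological replicates with separate mouse numbers. The mice were cage-mates, but the sources used here do not say which mice shared a cage.

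White fat stores triglyceride in adipocytes, and its remaining cells are progenitors, vessels and immune cells. In obesity, macrophages gather around dying adipocytes of epididymal fat, take up their lipid and express the receptor Trem2, the integrin Itgax and lysosomal enzymes. Such cells are known as lipid-associated macrophages, and they are known to remain in fat for some time after weight loss. Epididymal fat lies against the efferent ducts and the epididymis, whose ducts are partly lined with ciliated cells, so dissected fat can carry pieces of them.

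The tissue markers bore out the label: the 16 adipocyte genes listed were above 0 in all 12 libraries, and their summed level was 52512 to 68059.6 CPM in lean and 34799.6 to 62922 CPM in regression mice. Regression replicates 1 to 5 lay below every lean mouse in this sum and replicate 6 lay inside the lean range. CPM, the unit of all levels here, is a gene's share of its library's counts after TMM scaling of the totals. Library totals were 5929260 to 9457350 counts in lean mice and 6653374 to 25866576 counts in regression mice. Pieces of duct were present too, and unequally. The transcription factor Foxj1, which drives motile cilia, was 24.1 to 246 CPM in the lean mice. Among the regression mice replicate 3 had 238 CPM and the other 5 no more than 0.749 CPM. Dnah5, a motor protein of cilia, was 4.3 to 41.9 CPM in lean mice, 32.5 CPM in regression replicate 3 and 0.214 CPM or less in the others. The 19 genes of the motile cilium in the table summed to 114 to 614 CPM in lean mice, 571 CPM in regression replicate 3 and 55.8 to 75.2 CPM in the other regression mice. Lean replicate 1 also carried epididymis and vas deferens genes, with 206 CPM over 14 genes against 2.52 to 12.8 CPM in the other lean mice and 0.643 to 4.42 CPM in regression mice. Its leading gene Akr1b7 was 94 CPM there, while the median of the lean mice was 0. Duct RNA and diet were therefore nearly the same split of these 12 mice, and their parts cannot be told apart for a gene that differs as Foxj1 does. In the other epididymal groups Foxj1 reached 5 CPM in 3 of 6 and 4 of 5 libraries (lean and obese mice at the start), 2 of 6 and 5 of 6 (lean and regression mice at 2 weeks), and 2 of 6 in both groups at 6 weeks. Most 12-week counts below are therefore also given from a fit that held the mean level of the cilium genes and of the vas deferens genes as terms, called here the fit with duct terms.

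Calls rest on a two-sided quasi-likelihood test in edgeR over 14323 genes, with an adjusted p (Benjamini-Hochberg) below 0.05, and fold changes are log2 differences, regression minus lean, with their standard errors. In all, 1549 genes were called higher (10.8% of the genes tested) and 646 lower (4.51%), and the median over all genes was -0.01. With duct terms 260 genes were called higher (1.82%) and 122 lower (0.852%). Of the 1549 and 646 genes, 226 and 89 were called in both fits, and the sign changed in 0 and 3. The median size of the difference over the 1549 genes was 0.86 without and 0.68 with duct terms, and the median standard error was 0.23 and 0.25. The calls also leaned on single mice, and leaving out regression replicate 3, the one with duct RNA, gave 4253 calls (2199 higher and 2054 lower), while leaving out lean replicate 2 or regression replicates 2, 4 or 5 gave 1403, 1395, 1280 and 1374.

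Macrophage genes were higher, and in 4 of the 6 regression mice. Itgax (chromosome 7, 128129547 to 128150657 on mm10), an integrin of lipid-laden macrophages, was 0.574 to 3.54 CPM in lean mice with a median of 2.28. In regression replicates 1 to 6 it was 186, 108, 3.73, 85.8, 68.9 and 2.38 CPM, a difference of 5.08 ± 0.83 (adjusted p = 0.000482). Replicates 1, 2, 4 and 5 thus stood far above every lean mouse, and replicate 3 stood just above the lean range and replicate 6 within it. Trem2, the lipid-sensing receptor (chromosome 17, 48346401 to 48354147), was 2.67 to 8.08 CPM in lean mice with a median of 4.54. It was 163, 130, 6.87, 107, 78.8 and 4 CPM in regression replicates 1 to 6 (4.03 ± 0.75, adjusted p = 0.000812), with the same mice high and low. In bulk tissue, more cells of a type and more RNA per cell cannot be told apart, here and in what follows.

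**Figure D1:**
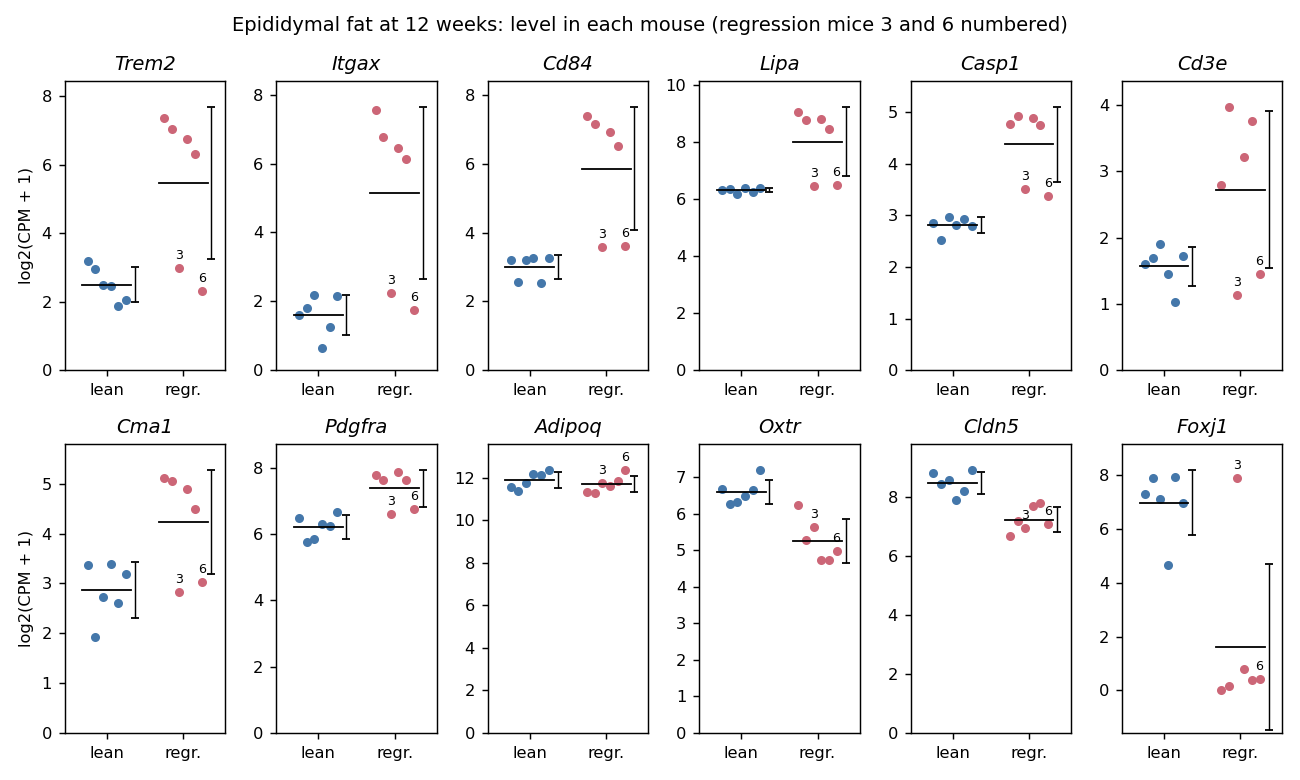
Level of 12 genes in each mouse as log2(CPM + 1) (points; lean in blue, regression in red, replicates 3 and 6 numbered), with the group mean (line) and its SD between 6 mice (bar). For Trem2 and Itgax regression replicates 3 and 6 sit with the lean mice while the other 4 are high; for Cd84, Lipa and Casp1 all 6 regression mice are above all lean mice, and for Oxtr and Cldn5 all 6 are below.

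The list of 18 genes shared by macrophages had 17 called higher and 0 lower (15 with duct terms), with a median difference of 2.20 against -0.01 over all genes. Cd68, a lysosomal glycoprotein, was 10.7 to 36.6 CPM in lean mice (median 19.2) and 269, 271, 28.5, 223, 161 and 28.2 CPM in regression mice (3.06 ± 0.55, adjusted p = 0.000676). Mpeg1, a pore-forming protein of phagosomes, differed by 3.38 ± 0.56 and Ctss, a protease that trims antigens, by 3.42 ± 0.57. Adgre1, a classical surface marker of mouse macrophages, differed by 2.83 ± 0.48. Per mouse, the median of the list above the lean mean was 2.54, 2.79, 0.26, 2.67, 2.30 and 0.47 on the log2 scale in regression replicates 1 to 6, and -0.43 to 0.58 in lean mice. The 2 low regression mice differed in duct RNA: replicate 3 carried it and replicate 6 did not.

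**Figure D2:**
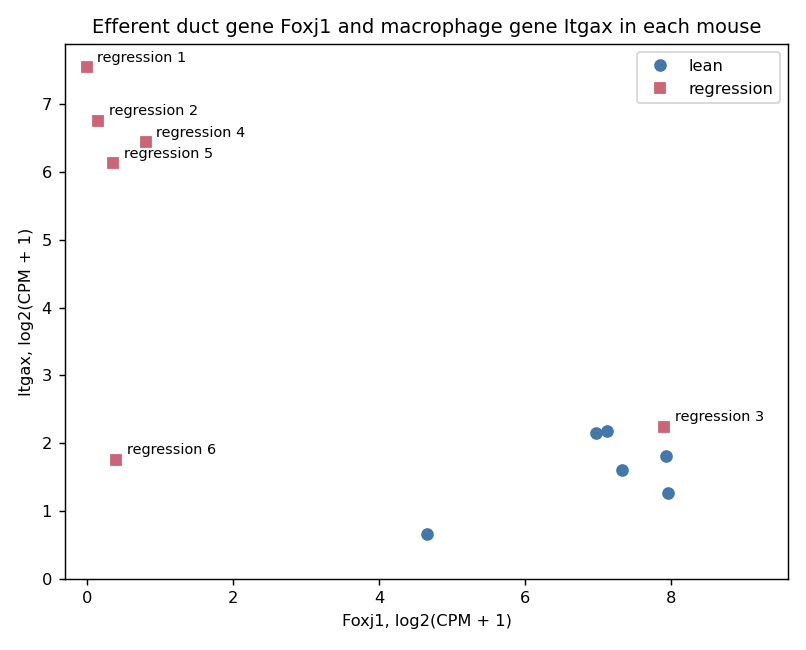
Foxj1, a gene of ciliated duct cells, against Itgax, a macrophage gene, in each of the 12 mice, both as log2(CPM + 1). Lean mice (circles) are right and low, as is regression replicate 3, with 238 CPM of Foxj1 and 3.73 CPM of Itgax. Regression replicates 1, 2, 4 and 5 are left and high (regression mice are squares). Regression replicate 6 is left and low, with 0.325 CPM of Foxj1 and 2.38 CPM of Itgax.

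Of the 19 genes of lipid-associated macrophages, 11 were called higher and 0 lower (9 with duct terms; median 1.01). Mmp12, an elastase, was 0 to 1.43 CPM in lean mice (median 0.901) and 559, 348, 10, 277, 213 and 1.3 CPM in regression mice (8.20 ± 1.17, adjusted p = 0.000196). Atp6v0d2, a subunit of the proton pump that acidifies lysosomes, was 0.408 to 1.47 CPM in lean mice and 160, 112, 4.33, 118, 89 and 0.757 CPM in regression mice (6.43 ± 1.04). For both genes regression replicate 3 lay above every lean mouse and replicate 6 did not. Lgals3, a galectin, differed by 2.38 ± 0.46, and the tetraspanin Cd9 by 1.01 ± 0.29, a call that was lost without regression replicate 1 (adjusted p = 0.0633). Lpl, the lipase that frees fatty acids from lipoproteins, is on the list but is also made by adipocytes. It was 7851 to 15059.8 CPM in lean and 7679 to 11006 CPM in regression mice, with no call (-0.36 ± 0.18, adjusted p = 0.166). All but 1 of the regression mice lay inside the lean range of Lpl.

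Tissue-resident macrophages carry other genes, and 6 of 14 were called higher (3 with duct terms; median 0.29). The mannose receptor Mrc1 differed by 1.12 ± 0.20, the scavenger receptor Stab1 by 1.02 ± 0.20 and the folate receptor Folr2 by 1.34 ± 0.27. Mrc1 was 149, 191, 95.3, 202, 155 and 111 CPM in regression mice and 42.6 to 113 CPM in lean mice. Lyve1, the hyaluronan receptor, was 29.1 to 57.7 CPM in lean and 33.3 to 66.7 CPM in regression mice (0.13 ± 0.19, adjusted p = 0.643). The phosphatidylserine receptor Timd4 was 2.09 to 7.31 and 2.24 to 6.92 CPM (0.09 ± 0.41, adjusted p = 0.909). The list was thus uneven, with all 6 regression mice inside the lean range of Timd4 and 4 above that of Mrc1.

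Receptors by which myeloid cells sense antibody, lipid and microbes were higher. Of 17 receptors and adaptors that signal through Fc chains and the kinase Syk, 16 were called higher (10 with duct terms; median 1.94). The fungal sugar receptor Clec7a differed by 3.25 ± 0.57 and the adaptor Fcer1g by 1.94 ± 0.36. Of 20 genes of toll-like receptors and inflammasomes 14 were called higher (4 with duct terms; median 1.43). Tlr13, a sensor of bacterial ribosomal RNA, was 1.74 to 3.71 CPM in lean mice and 87.6, 88.5, 4.33, 65.8, 45.9 and 3.14 CPM in regression mice (4.28 ± 0.76). Il1rn, the secreted antagonist of the interleukin-1 receptor, differed by 4.11 ± 0.87 and Tnf, the cytokine, by 1.94 ± 0.48. Both had the same 4 mice above the lean range, and neither was called with duct terms (adjusted p = 0.0502 and 0.127). Tlr4, the receptor for bacterial lipopolysaccharide, was 21.4 to 29.7 CPM in lean and 23.3 to 47.6 CPM in regression mice (0.62 ± 0.16, adjusted p = 0.00674), and had no call with duct terms (adjusted p = 0.221).

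Genes of lysosomes and of cholesterol handling followed the macrophage genes. Of 24 lysosomal genes 15 were called higher (4 with duct terms; median 0.71), among them Laptm5 (1.91 ± 0.36), a membrane protein of lysosomes in blood cells, and the collagen-degrading protease Ctsk (2.61 ± 0.54). Of 14 genes of cholesterol efflux and liver X receptor targets 6 were called higher (3 with duct terms; median 0.17): Abcg1, which exports cholesterol, differed by 1.47 ± 0.27, and Soat1, which stores it as ester, by 1.86 ± 0.44. Both differed in the same 4 mice, with Soat1 at 17.9 and 13.1 CPM in regression replicates 3 and 6 and 11.6 to 18.1 CPM in lean mice.

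A smaller set of genes separated all 6 regression mice from all 6 lean mice, including replicates 3 and 6. Over all genes 126 (0.88%) had every regression mouse above every lean mouse, of which 109 were also called, and 43 of these also with duct terms. Among those with a standard symbol and a mean of 5 CPM or more, the 10 with the largest difference were Il7r, Cd84, Pianp, Msr1, Hpgds, Tlr8, Slc6a7, Lipa, Epsti1 and Casp1, and all 10 were called with duct terms. Cd84 (chromosome 1, 171839697 to 171890718), an adhesion receptor of leukocytes, was 4.76 to 8.61 CPM in lean mice and 167, 142, 10.9, 120, 90.9 and 11.3 CPM in regression mice (3.65 ± 0.63, adjusted p = 0.000636). Lipa, the acid lipase that breaks down cholesteryl ester and triglyceride in lysosomes (chromosome 19, 34492318 to 34527474), was 71.1 to 82.5 CPM in lean mice and 526.4, 435.97, 85.7, 445.1, 349 and 89.2 CPM in regression mice (2.04 ± 0.41, adjusted p = 0.00106). Replicates 3 and 6 stood only just above the lean range of both genes. Casp1, the inflammasome protease (chromosome 9, 5298517 to 5307265), was 4.75 to 6.8 CPM in lean mice and 26.3, 29.5, 10.5, 28.5, 26 and 9.41 CPM in regression mice (1.84 ± 0.30, adjusted p = 0.000482). Here replicates 3 and 6 were well clear of the lean mice. Epsti1, an interferon-induced gene, was 2.97 to 4.45 CPM in lean mice and 5.52 to 20.1 CPM in regression mice (1.96 ± 0.33, adjusted p = 0.000482). The interleukin-7 receptor Il7r differed by 3.87 ± 0.71, the scavenger receptor Msr1 by 3.22 ± 0.56, the prostaglandin D synthase Hpgds by 2.73 ± 0.56 and the RNA sensor Tlr8 by 2.68 ± 0.49. Pianp differed by 3.39 ± 0.59, and the proline transporter Slc6a7 was 0.891 to 2.87 CPM in lean and 4.78 to 15.9 CPM in regression mice (2.37 ± 0.46). These 10 genes kept their call with each of the 12 mice left out in turn. They were picked as called and not overlapping in these same mice, so this is no independent support.

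Promoters of genes called higher are shown here because macrophage genes share a binding motif of the transcription factor PU.1. The letters GAGGAAGT were searched on both strands in the 250 bases before the start of genes in the RefSeq promoter table (GRCm38.p6), which held 10876 of the 14323 genes. They were found in 6.11% of 1195 genes called higher, 1.63% of 492 called lower and 3.03% of all genes tested (2.79% of all 27025 genes in the table). A gene was counted if any of its promoters held the letters. Among the genes called higher that hold it, the promoters of Mmp12 and of Fcgr4, an activating Fc receptor, follow, both on the + strand and 5′ to 3′ with the motif, here on the opposite strand, in capitals.
Mmp12, chr9:7344147-7344396: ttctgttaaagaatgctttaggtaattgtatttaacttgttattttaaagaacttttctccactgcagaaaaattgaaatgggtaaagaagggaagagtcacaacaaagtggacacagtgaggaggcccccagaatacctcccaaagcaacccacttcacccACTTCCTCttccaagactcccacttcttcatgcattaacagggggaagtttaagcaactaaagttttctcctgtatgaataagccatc
Fcgr4, chr1:171018676-171018925: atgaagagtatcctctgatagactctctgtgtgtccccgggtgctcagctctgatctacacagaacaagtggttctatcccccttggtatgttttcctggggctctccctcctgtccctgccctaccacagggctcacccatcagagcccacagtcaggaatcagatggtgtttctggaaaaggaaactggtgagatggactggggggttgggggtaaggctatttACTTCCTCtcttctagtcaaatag
The motif lies 88 to 81 bases before the start of Mmp12 and 24 to 17 bases before that of Fcgr4. Fcgr4 was 0 to 1.47 CPM in lean mice and 11.1, 14.1, 2.09, 18.7, 12.4 and 0.757 CPM in regression mice (3.68 ± 0.76, adjusted p = 0.00139). Among genes called higher with a promoter in the table, the motif was found in 1 of 8 lipid-associated macrophage genes and 0 of 13 genes shared by macrophages. The motifs TTCNNNGAA (STAT5) and TCACGTG (the MiT/TFE factors) were found in 8.95% and 5.27% of the genes called higher, 6.71% and 4.88% of those called lower, and 7.4% and 5.45% of all genes tested. No test was made of these shares, and a match in these letters is not a binding site.

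Antigen presentation was higher in both its branches, to different extents. MHC class II presents peptides from outside the cell, and 11 of 14 genes of it were called higher (4 with duct terms; median 1.31). H2-Aa, a class II chain, was 114 to 247 CPM in lean mice and 381, 478.2, 162, 686, 478.5 and 161 CPM in regression mice (1.36 ± 0.28, adjusted p = 0.00149), and the costimulator Cd86 differed by 1.32 ± 0.25. MHC class I presents peptides from inside the cell, and 10 of 11 genes were called higher (0 with duct terms; median 0.44), against 0 of 11 in obese mice. The immunoproteasome subunit Psmb8 was 22.4 to 31.7 CPM in lean mice and 44.4, 66.1, 26.1, 64.9, 66.5 and 28.8 CPM in regression mice (0.83 ± 0.20, adjusted p = 0.00449). Psmb9 differed by 0.75 ± 0.18 and the peptide transporter Tap1 by 0.75 ± 0.22; these neighbours overlap on chromosome 17, and the strand setting of the counts is not given. The class I calls were fragile. Their number fell to 2 without regression replicate 4 or 5, 3 without regression replicate 2, 4 without lean replicate 2, and 6 without lean replicate 1 or regression replicate 1, and Tap1 lost its call without regression replicate 2, 4 or 5 (highest adjusted p = 0.0624). Of the class I genes 0 differed between 12 weeks and obesity by the test of that difference.

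Interferon-induced genes were called higher in 7 of 18 cases (0 with duct terms; median 0.52; 2 of 18 in obese mice). Irf1, a transcription factor, differed by 0.54 ± 0.15, the antiviral GTPase Mx1 by 1.20 ± 0.35 and Oasl2 by 0.77 ± 0.23. The count was 1 without lean replicate 2 or regression replicate 2 or 5, 2 without regression replicate 4, 3 without lean replicate 6, 4 without lean replicate 1, and 11 without regression replicate 3 or 6. Irf1 (highest adjusted p = 0.0534), Mx1 (0.0571) and Oasl2 (0.0747) each lost the call in some of these fits. Complement genes were steadier, with 11 of 16 called higher (6 with duct terms; median 0.77). C1qa, of the complex that starts the classical pathway, was 103 to 204 CPM in lean mice and 593, 753, 189, 623, 477.8 and 205 CPM in regression mice (1.73 ± 0.28). C1qc differed by 1.84 ± 0.33 and the anaphylatoxin receptor C3ar1 by 2.97 ± 0.54. C3, the central component, was 326 to 554 CPM in lean mice and 988, 973, 390.9, 1226, 983 and 882 CPM in regression mice (1.12 ± 0.22, adjusted p = 0.000885). In contrast to the macrophage genes, C3 was high in regression replicate 6.

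Lymphocyte genes were higher in the same 4 regression mice. Of 18 T cell genes 15 were called higher (1 with duct terms; median 2.02). Cd3e, of the T cell receptor complex, was 1.04 to 2.72 CPM in lean mice and 5.92, 14.6, 1.19, 8.24, 12.6 and 1.73 CPM in regression mice (1.89 ± 0.56, adjusted p = 0.0179). Zap70, its kinase, differed by 2.37 ± 0.61, the adhesion receptor Cd2 by 1.61 ± 0.43, and Cd8a, of killer T cells, by 2.55 ± 0.71. Among macrophage genes, regression replicate 1 had held the highest levels of Itgax, Mmp12 and Trem2. Replicate 2 had held those of Cd68 (271 CPM) and Adgre1 (169 CPM) and the highest median of the macrophage list (2.79). Regression replicates 2 and 5 held the highest levels of Cd3e, Zap70 and Cd8a. The count of T cell genes was 8 without regression replicate 2 and 9 without regression replicate 5. Calls over all genes fell from 2195 to 1395 and 1374 in the same 2 fits. Cd3e lost its call without either mouse (highest adjusted p = 0.066). Of 12 genes of cytotoxic and natural killer cells 9 were called higher (0 with duct terms; 4 and 5 without regression replicates 2 and 5; median 1.87). Nkg7, a protein of cytotoxic granules, differed by 2.59 ± 0.62 and the activating receptors Klrk1 and Ncr1 by 1.63 ± 0.42 and 2.00 ± 0.52. Of 14 genes of T cell exhaustion and regulation 6 were called higher (0 with duct terms; median 0.92), with Pdcd1 (2.77 ± 0.73) and Havcr2 (2.25 ± 0.63), both inhibitory receptors, and Foxp3 (1.93 ± 0.56), of regulatory T cells, which lost its call without regression replicate 5 (adjusted p = 0.0655). That count was 3 without lean replicates 2, 3 or 5 or regression replicates 1, 4 or 5, and 10 without regression replicate 3. Pdcd1 was at most 0.816 CPM in lean and 9.76 CPM in regression mice, so these receptors rest on low counts.

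B and plasma cell genes were called higher in 5 of 12 cases (0 with duct terms; median 1.83). Jchain, which joins secreted antibodies, was 8.59 to 82.9 CPM in lean mice (median 20.9) and 124, 279, 23.4, 225, 450.9 and 10.2 CPM in regression mice (2.72 ± 0.71, adjusted p = 0.00853). The B cell kinase Blk differed by 1.80 ± 0.56 and the scaffold Bank1 by 1.21 ± 0.37, and Ms4a1, the B cell antigen CD20, had no call (2.13 ± 0.77, adjusted p = 0.0535). Lean replicate 4 held the highest lean level of Jchain and of Ms4a1, and without it Ms4a1 was called, as it was without regression replicate 3 or 6 (lowest adjusted p = 0.015). The count of the list was 1 without lean replicate 2 or 5 or regression replicate 2 or 5, 2 without lean replicate 3, 3 without lean replicate 6, and 9 without lean replicate 4 or regression replicate 3 or 6. Blk and Bank1 lost their calls in some of these fits (highest adjusted p = 0.0702 and 0.0656).

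Mast cell genes were higher at 12 weeks and mostly had no call in obese mice. Of 12 genes 8 were called higher (2 with duct terms; median 1.51), against 1 in obese mice (median 0.43). Cma1, the mast cell chymase, was 2.82 to 9.47 CPM in lean mice and 33.7, 32.4, 6.12, 28.8, 21.4 and 7.14 CPM in regression mice (1.67 ± 0.43, adjusted p = 0.00687; 0.64 ± 0.45, adjusted p = 0.325, in obese mice). Mcpt4, another chymase, differed by 1.53 ± 0.39 at 12 weeks and by 0.39 ± 0.41 in obese mice. The carboxypeptidase Cpa3 was the 1 gene of the list whose difference between 12 weeks and obesity was called (0.87 ± 0.29 at 12 weeks, -0.65 ± 0.31 in obese mice; difference 1.52 ± 0.43, adjusted p = 0.0473). That call was lost in 13 of 17 fits that left out a mouse (highest adjusted p = 0.11, without obese replicate 1), and the 12-week call of Cpa3 in 9 of 12 (highest adjusted p = 0.113, without regression replicate 2). Again regression replicates 3 and 6 lay inside the lean range of Cma1.

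Other blood cells showed less. Of 8 genes of eosinophils and innate lymphoid cells 3 were called higher (0 with duct terms; 1 without regression replicate 1 or 4): the eosinophil receptors Ccr3 (3.05 ± 0.79) and Siglecf (2.90 ± 0.79), at most 4.49 and 2.06 CPM, and the interleukin-33 receptor Il1rl1 (0.85 ± 0.27), whose call was lost in 5 of 12 fits (highest adjusted p = 0.117, without regression replicate 1). Of 12 dendritic cell genes 5 were called higher (1 with duct terms; median 0.85), among them Cd83 (2.22 ± 0.48), a maturation marker, and Clec9a (1.09 ± 0.26), a receptor for dead cells. The growth factor receptor Flt3 had no call (1.17 ± 0.43, adjusted p = 0.0567) but gained one without lean replicate 4 or regression replicate 3 or 6 (lowest adjusted p = 0.013). The neutrophil gene S100a8 was 0.327 to 2.18 CPM in lean and 0.136 to 1.68 CPM in regression mice (-0.52 ± 0.54, adjusted p = 0.509). The monocyte receptor Ccr2 differed by 0.83 ± 0.24 (adjusted p = 0.0159; 0.375 with duct terms; 0.0566 without regression replicate 4).

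Signals that draw these cells were higher too. Of 21 chemokines 10 were called higher (3 with duct terms; median 1.22) and of 15 chemokine receptors 9 (1 with duct terms; median 1.37). The macrophage chemokines Ccl9 (2.11 ± 0.40) and Ccl6 (1.71 ± 0.33) are close relatives whose reads could be shared. Ccl11, which draws eosinophils, was 23.3 to 38 CPM in lean mice and 54.1, 65, 42.7, 69.5, 68.6 and 51.9 CPM in regression mice (0.96 ± 0.19, adjusted p = 0.000929; 0.0522 with duct terms). All 6 regression mice were above all lean mice for Ccl11, replicates 3 and 6 included. Among the receptors, Cxcr3 differed by 2.02 ± 0.47 and Cxcr4 by 1.10 ± 0.27.

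**Figure D3:**
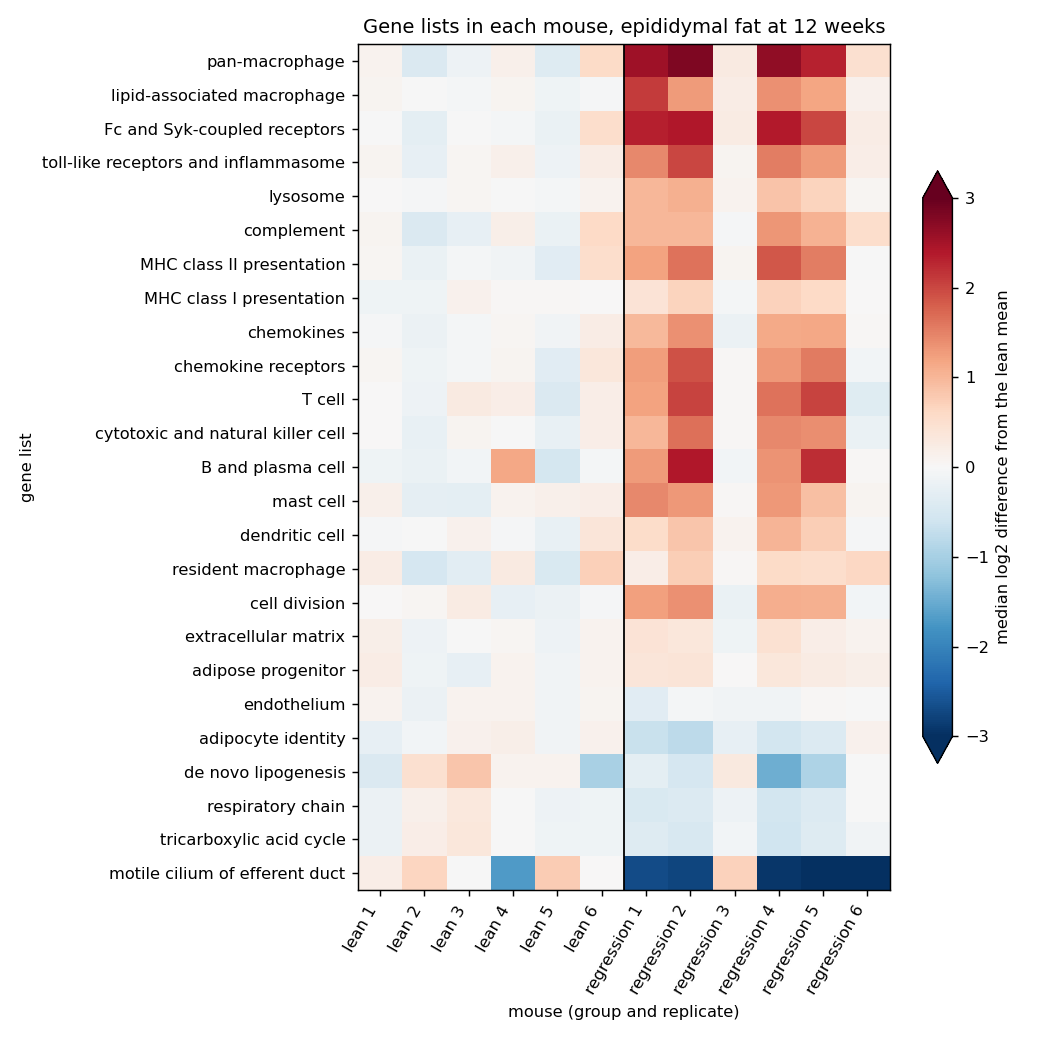
Median log2 difference from the lean mean over the members of 25 gene lists (rows) in each of the 12 mice (columns; colours beyond ±3 are clipped). In most immune lists regression replicates 1, 2, 4 and 5 are red while 3 and 6 are pale like the lean mice. In the resident macrophage list replicate 1 is at 0.19 and replicate 6 at 0.62, and in complement replicate 6 is at 0.52. Lean replicate 4 is at 1.17 in the B and plasma cell list. The motile cilium row is blue in every regression mouse but replicate 3.

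Genes of cell division were called higher in 8 of 20 cases (0 with duct terms; median 1.26), against 18 of 20 in obese mice. Top2a, which untangles DNA, was 1.15 to 3.67 CPM in lean mice and 8.94, 10.9, 2.09, 9.53, 11.4 and 1.41 CPM in regression mice (1.75 ± 0.49, adjusted p = 0.0117). The mitotic kinase Aurkb differed by 1.57 ± 0.41 and the cyclin Ccnb1 by 1.61 ± 0.43. The count was 4 without regression replicate 2, 5 without regression replicate 4, and 15 and 13 without regression replicates 3 and 6. Of 13 genes of senescence and cell cycle inhibitors 4 were called higher (0 with duct terms; 2 without regression replicate 5), with Trp53 (0.42 ± 0.11), the tumour suppressor p53, in all 6 regression mice above the lean range, Lmnb1 (0.85 ± 0.21), of the nuclear lamina, and Cdkn1b (0.42 ± 0.12), the inhibitor p27, whose call was lost without regression replicate 5 (adjusted p = 0.0501). Lmnb1 is known to be lost in senescent cells. Of 17 genes of the unfolded protein response 5 were called higher (2 with duct terms), led by the chaperone partner Sdf2l1 (1.32 ± 0.26) with Pdia3 (0.36 ± 0.10) and Hsp90b1 (0.34 ± 0.10). That count was 1 to 3 without lean replicate 2 or 3 or regression replicate 1, 2, 4 or 5 and 9 without regression replicate 3, and Pdia3 and Hsp90b1 lost their calls without regression replicate 4 or 5 (highest adjusted p = 0.0689 for both).

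In the stroma, progenitor and matrix genes moved less than immune genes. Of 14 adipose progenitor genes 3 were called higher (2 with duct terms; 6 without regression replicate 3 or 6; median 0.24). Pdgfra, the receptor that marks progenitors (chromosome 5, 75152292 to 75198215), was 53.7 to 101.7 CPM in lean mice and 220, 197, 95.7, 234, 197 and 107 CPM in regression mice (1.22 ± 0.23, adjusted p = 0.000812; 0.0301 with duct terms). The adhesion molecule Icam1 differed by 0.90 ± 0.22 and the growth factor Clec11a by 0.67 ± 0.17, and Dpp4, of early progenitors, had no call (-0.01 ± 0.19, adjusted p = 0.977). Of 24 extracellular matrix genes 4 were called higher (1 with duct terms; median 0.20), against 20 of 24 in obese mice (median 0.95). Over all genes the shares called higher were 10.8% and 14.1%, so the 12-week matrix count stood near the share of all genes. The small proteoglycan Dcn was 481.8 to 971 CPM in lean mice and 1398, 1169, 798, 1636, 1419.7 and 1228 CPM in regression mice (0.83 ± 0.17, adjusted p = 0.00146; 0.12 ± 0.18 in obese mice). The related Lum differed by 0.99 ± 0.29 and the collagen Col6a3 by 0.75 ± 0.21, while Col1a1 had no call (0.35 ± 0.21, adjusted p = 0.232). By the test of the difference, 7 of 24 matrix genes were called lower at 12 weeks than in obesity and 0 higher. Over all genes those shares were 1.6% and 0.726%. The count of 4 was 1 without regression replicate 2, 2 without regression replicate 4 and 7 without regression replicate 3; Col6a3 lost its call without regression replicate 2 (adjusted p = 0.0548) and Lum without 2 or 4 (highest adjusted p = 0.051). Of 18 matrix proteases and inhibitors 8 were called higher (2 with duct terms), the inhibitor Timp2 by 0.74 ± 0.18. No gene of 14 for endothelium, with Pecam1 at -0.03 ± 0.12 (adjusted p = 0.904), or of 10 for smooth muscle and pericytes, with the actin Acta2 at -0.34 ± 0.49 (adjusted p = 0.642), was called. For mesothelium, the lining of the fat pad, 1 of 11 was called (0 with duct terms), and Msln, its marker, was not (0.06 ± 0.30, adjusted p = 0.923).

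Single adipocyte genes had no call, although their sum was below the lean range in regression replicates 1 to 5: 0 of 16 were called (median -0.38), and 0 of 16 with duct terms (median -0.59), against 7 lower in obese mice. Adipoq, the hormone adiponectin, was 2639 to 5277 CPM in lean and 2502 to 5207 CPM in regression mice (-0.18 ± 0.22, adjusted p = 0.571). The lipid droplet coat Plin1 was 1973 to 2985 and 1665 to 2286 CPM (-0.38 ± 0.18, adjusted p = 0.145). The transcription factors Pparg (-0.01 ± 0.19, adjusted p = 0.976) and Cebpa (-0.38 ± 0.18, adjusted p = 0.142), the lipase Pnpla2 (-0.52 ± 0.23, adjusted p = 0.111) and, outside the list, the glucose transporter Slc2a4 (-0.32 ± 0.23, adjusted p = 0.329) had no call either. For Plin1, Cebpa and Pnpla2, 4 of the 6 regression mice were below every lean mouse. CPM values are shares of a library, so they measure no amount per fat pad. The uncoupling protein Ucp1 was at most 1.48 CPM in any of the 12 mice.

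Mitochondrial genes were lower by small amounts, with a call in some. Of 25 respiratory chain subunits 8 were called lower (0 with duct terms; median -0.34), against 24 in obese mice (median -0.71). Ndufv1, of complex I, was 78.9 to 117 CPM in lean mice and 57.1, 63.7, 80, 57.5, 71.1 and 84.2 CPM in regression mice (-0.45 ± 0.13, adjusted p = 0.0189). Ndufs1 was at -0.36 ± 0.12 and Cyc1, of complex III, at -0.45 ± 0.15. Regression replicates 3 and 6 again lay closest to the lean mice. The count was 0 without lean replicate 3 or regression replicate 1 or 4, 1 without lean replicate 2 or regression replicate 5, 3 without regression replicate 2, and 14 without regression replicate 3 or 6. Of 19 genes of the tricarboxylic acid cycle 5 were called lower (0 with duct terms; 1 or 2 without lean replicate 2 or 3 or regression replicate 1, 2, 4 or 5; 8 and 9 without regression replicates 3 and 6). Suclg1 (-0.53 ± 0.14) and Mdh2 (-0.46 ± 0.15) were among them. Of 18 genes of fatty acid oxidation 3 were called lower (median -0.27, and -0.22 in obesity; 1 with duct terms; 0 without lean replicate 2 or 3 or regression replicate 1, 2, 4 or 5; 5 without regression replicate 3 or 6), among them Acadvl (-0.37 ± 0.12) and Cpt2 (-0.52 ± 0.17). Of these genes Suclg1 kept its call with each mouse left out, and the highest adjusted p was 0.0699 for Ndufv1, 0.113 for Ndufs1, 0.129 for Cyc1, 0.117 for Mdh2, 0.104 for Acadvl and 0.142 for Cpt2. Ppargc1a, the coactivator that drives mitochondrial genes, was 14.8 to 21.6 CPM in lean mice and 10, 9.09, 14.5, 9.6, 6.5 and 9.95 CPM in regression mice (-0.79 ± 0.21, adjusted p = 0.00773; 0.128 with duct terms). All 6 regression mice were below all lean mice. Its partner receptor Ppara was at -0.65 ± 0.22 (adjusted p = 0.0426; highest 0.121, without regression replicate 2). The proton channel Otop1, which marks heat-producing adipocytes, was called higher (1.63 ± 0.55, adjusted p = 0.0383), a call lost in 8 of 12 fits (highest adjusted p = 0.146, without regression replicate 1).

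Over all genes 104 (0.726%) had every regression mouse below every lean mouse, of which 69 were called and 22 of these also with duct terms. The 10 largest by the same rule were Oxtr, Cldn5, Acaa1b, Itpka, Ppp1r1a, Nrarp, Fam19a5, Irx3, Glt28d2 and Cd320. Oxtr, the oxytocin receptor (chromosome 6, 112473683 to 112489943), was 75.6 to 146 CPM in lean mice and 75.1, 37.6, 49, 25.4, 25.4 and 30.4 CPM in regression mice (-1.29 ± 0.26, adjusted p = 0.00118; 0.0335 with duct terms). The claudin Cldn5, of tight junctions in vessels (chromosome 16, 18776847 to 18778262), was 238 to 480 CPM in lean mice and 100, 146, 123, 205, 223 and 135 CPM in regression mice (-1.22 ± 0.31, adjusted p = 0.00727; 0.0216 with duct terms). Unlike the immune genes, Cldn5 was as low in replicates 3 and 6 as in the others. Acaa1b, a thiolase of peroxisomes, was 43.8 to 93.9 CPM in lean and 18.5 to 40.4 CPM in regression mice (-1.14 ± 0.24, adjusted p = 0.00141). Nrarp, a target and brake of Notch signalling, was 57.6 to 107 CPM in lean and 31.2 to 54.5 CPM in regression mice (-0.97 ± 0.25, adjusted p = 0.00734). The inositol kinase Itpka (-1.07 ± 0.22), the phosphatase inhibitor Ppp1r1a (-0.97 ± 0.28) and the homeobox gene Irx3 (-0.86 ± 0.26) were also called with duct terms. Fam19a5 (-0.90 ± 0.31), Glt28d2 (-0.86 ± 0.21) and the cobalamin uptake receptor Cd320 (-0.82 ± 0.22) were not called with them (adjusted p = 0.0649, 0.0522 and 0.0549). Of the 10, Fam19a5 lost its call in 8 of 12 fits that left out a mouse (highest adjusted p = 0.128, without regression replicate 4), Irx3 without lean replicate 6 or regression replicate 1 (highest 0.0589) and Ppp1r1a without lean replicate 3 (0.0576).

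Several genes of duct and sperm were lower by large and uneven amounts. Of 17 motile cilium genes 0 were called (median -1.98; 0 with duct terms, median -0.21). The duct term is the mean of the cilium genes themselves, so that fit takes out their difference by design and is no test of them. Foxj1 was at -2.01 ± 1.49 (adjusted p = 0.341) and Dnah5 at -2.12 ± 1.33 (adjusted p = 0.256), and without regression replicate 3 both were called lower (adjusted p = 0.0027 and 0.00266). Of 6 sperm and testis genes 4 were called lower and 1 higher (0 and 0 with duct terms; 2 lower without lean replicate 2), and the summed level of the list overlapped between the groups (35.3 to 125 CPM in lean and 54.0 to 97.8 CPM in regression mice). The higher gene was Sycp3, of meiotic chromosomes (0.71 ± 0.22, adjusted p = 0.0241), named after its value was seen. Smcp, of the sperm mitochondrion, was 1 to 14.6 CPM in lean and at most 0.597 CPM in regression mice (-5.71 ± 1.24, adjusted p = 0.00194). Prm2 and Tnp2, which pack sperm DNA, were at -5.14 ± 1.27 and -3.82 ± 1.01. Regression replicate 3, with 238 CPM of Foxj1, was the highest regression mouse for Smcp (0.597 CPM), Prm2 (1.79 CPM) and Tnp2 (1.49 CPM). Its Smcp was still below every lean mouse. The part of the duct pieces in these lower calls was not tested.

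A few calls concerned other pathways. The haem oxygenase Hmox1, which rises with haem and oxidative stress, was 23.3 to 32.2 CPM in lean mice and 91.8, 125, 31.2, 95.2, 79.2 and 31.6 CPM in regression mice (1.46 ± 0.28, adjusted p = 0.000819; 0.034 with duct terms). Its regulator Nfe2l2 was at 0.43 ± 0.14 (adjusted p = 0.03) and the glutathione transferase Gstm1 at -0.37 ± 0.13 (adjusted p = 0.044), and both lost the call in over 6 of 12 fits (highest adjusted p = 0.0786 and 0.141, without lean replicate 2 and regression replicate 4). Of 13 targets of STAT5 and growth hormone 3 were higher and 1 lower (0 and 1 with duct terms; 0 higher without lean replicate 2 or 3, 1 without regression replicate 2, 4 or 5). The lower call with duct terms was another gene, the transcription factor Stat5a (adjusted p = 0.0728 without and 0.0411 with them), named after its values were seen. The 1 lower gene without them, the cytokine signal inhibitor Cish, was 7.42 to 134 CPM in lean mice (median 32.6) and 7.35 to 29.4 CPM in regression mice (-1.96 ± 0.64, adjusted p = 0.0317; 0.102 with duct terms; 0.105 without lean replicate 5). The growth factor Igf1 was at 0.52 ± 0.16 and the kinase Jak2 at 0.27 ± 0.09, with highest adjusted p of 0.0695 (without lean replicate 3) and 0.115 (without regression replicate 4). Plin5, which ties lipid droplets to mitochondria, was 10.7 to 20.4 CPM in lean mice and 7.84, 4.15, 12.5, 5.99, 4.79 and 6.71 CPM in regression mice (-1.14 ± 0.25, adjusted p = 0.00205; 0.0428 with duct terms). The endocytic receptor Lrp1 was at 0.64 ± 0.17 and the fatty acid transporter Slc27a4 at -0.36 ± 0.12, whose call was lost in 5 of 12 fits (highest adjusted p = 0.117, without lean replicate 3).

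**Figure D4:**
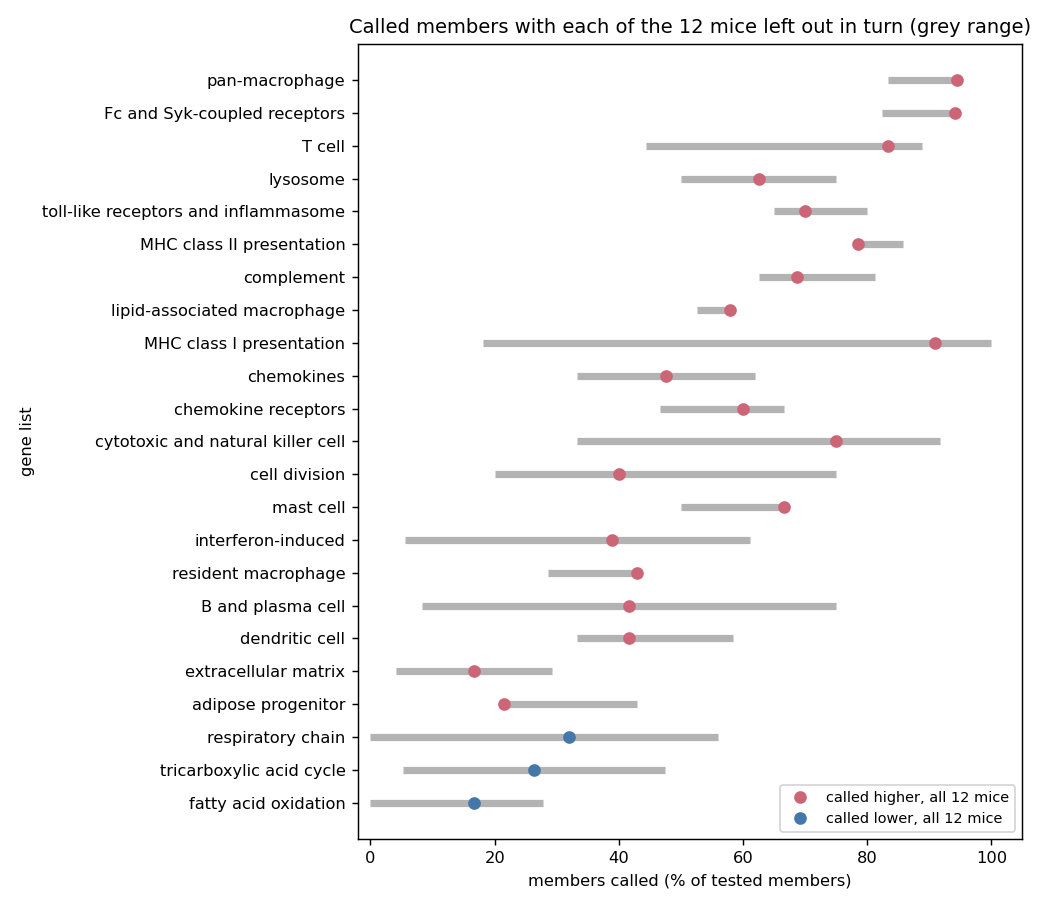
Share of tested members called in each list with all 12 mice (points, red for higher, blue for lower) and its range when each mouse was left out in turn (grey). Lists of macrophage genes, Fc receptors, MHC class II and complement hold their counts, while MHC class I, interferon-induced, B cell and mitochondrial lists run from few or no calls to many.

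Obese mice gave the point of comparison, and no library is shared with the 12-week groups. In obesity 2013 genes were called higher (14.1%) and 1333 lower (9.31%). Of the 1549 genes higher at 12 weeks, 918 were also higher in obese mice, which is 59.3% of the 12-week genes and 45.6% of the obesity genes, and 6 were lower. Of the 646 lower genes 184 were also lower in obese mice (28.5% and 13.8%), and 19 were higher. The shared part was thus larger among the higher genes. Of the macrophage, Fc receptor, MHC class II and T cell genes, 0 had a difference at 12 weeks that was called apart from that in obesity. Itgax, for example, was at 5.08 ± 0.83 after 12 weeks and 4.55 ± 0.82 in obesity (difference 0.53 ± 1.15), an interval wide enough to hold large differences either way.

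The test of the difference called 104 genes higher (0.726%) and 229 lower (1.6%) at 12 weeks than in obesity, and 103 and 288 with duct terms. Elovl6, an elongase of fatty acid synthesis, was at -0.34 ± 0.49 after 12 weeks against -4.16 ± 0.60 in obesity (difference 3.82 ± 0.74, adjusted p = 0.00226), and Acly, which feeds that synthesis, at -0.31 ± 0.44 against -3.14 ± 0.52 (2.82 ± 0.66, adjusted p = 0.0114). Fasn, the synthase, was at -0.57 ± 0.47 after 12 weeks and -2.64 ± 0.53 in obesity, and its difference had no call (2.08 ± 0.69, adjusted p = 0.106). Of 20 genes of the list 17 were lower in obesity, 1 was lower at 12 weeks, and 4 had a called difference. Hsd11b1, which activates glucocorticoid, was at -0.28 ± 0.26 against -3.14 ± 0.31 (adjusted p = 2.55e-05). Lep, the hormone leptin, was 945 to 2189 CPM in lean and 794 to 1887 CPM in regression mice, and its difference of -0.24 ± 0.27 stood against 2.20 ± 0.29 in obesity (difference -2.44 ± 0.39, adjusted p = 0.000251). The Wnt inhibitor Sfrp5 was at 0.00 ± 0.42 against 3.09 ± 0.46 (-3.09 ± 0.61, adjusted p = 0.00292). Mest, the third enlargement gene of the panel, was at 0.06 ± 0.37 against 1.31 ± 0.39, with no call of the difference (adjusted p = 0.253). All 6 regression mice lay within the lean range of Elovl6, Acly and Sfrp5, those with high macrophage genes included, while 2 lay below the lean range of Lep and 3 below that of Hsd11b1.

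**Figure D5:**
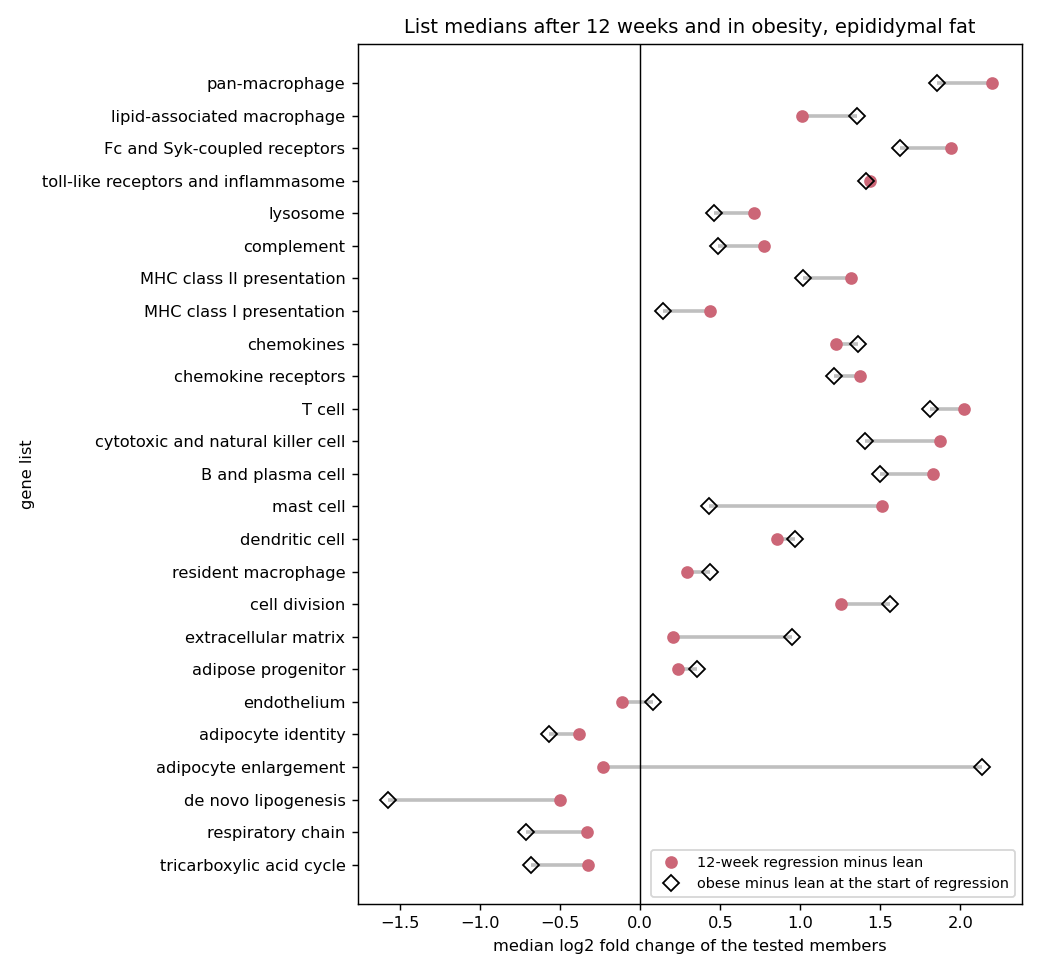
Median log2 fold change of the tested members of 25 gene lists after 12 weeks (red circles) and in obesity (black diamonds). Immune lists are right of 0 in both, with mast cell genes at 1.51 and 0.43, while enlargement, lipogenesis, matrix, respiratory chain and tricarboxylic acid cycle lists lie closer to 0 after 12 weeks than in obesity.

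Oxtr was called on opposite sides of lean in the 2 comparisons, each against its own lean group. Oxtr was at 2.20 ± 0.27 in obese mice and -1.29 ± 0.26 after 12 weeks (difference -3.49 ± 0.38, adjusted p = 1.56e-07). This call was kept with each of 17 mice left out and with duct terms. The lean groups had means of 61.4 CPM (33.6 to 85.1) at the start and 98.2 CPM (75.6 to 146) at 12 weeks. The regression mice (25.4 to 75.1 CPM) overlapped the lean mice of the start. Plin5 was at 0.48 ± 0.25 in obesity and -1.14 ± 0.25 after 12 weeks (-1.63 ± 0.36, adjusted p = 0.00674), also kept in all 17. In obesity Plin5 had no call (adjusted p = 0.169), nor had Cldn5 (0.40 ± 0.32, adjusted p = 0.41), Acaa1b (0.06 ± 0.24, adjusted p = 0.887) or Irx3 (0.59 ± 0.27, adjusted p = 0.102). Cldn5 (-1.62 ± 0.45, adjusted p = 0.0404), Acaa1b (-1.20 ± 0.34, adjusted p = 0.0435) and Irx3 (-1.45 ± 0.37, adjusted p = 0.023) had a call of the difference as well, which was lost in 9, 9 and 2 of 17 fits (highest adjusted p = 0.126, 0.151 and 0.079, each without obese replicate 1). Among the largest called differences were also the choline transporter Slc5a7 (-3.92 ± 0.58) and the serotonin-synthesis gene Tph2 (-4.42 ± 0.94), at -0.44 ± 0.40 and 0.47 ± 0.65 after 12 weeks against 3.48 ± 0.42 and 4.89 ± 0.71 in obesity. Gpr50, an orphan receptor (-5.91 ± 1.33), was at most 1.64 CPM in the 12 mice. On the other side were Alb (3.13 ± 0.84) and H2-Q10 (2.86 ± 0.63), a class I gene of a family with near-identical copies. The call of Alb was lost in 8 of 17 fits (highest adjusted p = 0.0765, without obese replicate 2).

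The inguinal fat of the same mice showed few differences at 12 weeks. There 4 of 13899 genes (0.0288%) were called: Klf6 (0.78 ± 0.13), Prickle1 (0.64 ± 0.12) and Catsperg1 (1.12 ± 0.21) higher and the transcription factor Cebpb lower (-1.50 ± 0.25). Of the lists that differed in epididymal fat 0 members were called, with medians of 0.35 for macrophage and 0.15 for T cell genes. The mitochondrial lists had lower medians there than in epididymal fat, with -0.59 against -0.27 for fatty acid oxidation, -0.55 against -0.32 for the tricarboxylic acid cycle and -0.48 against -0.34 for the respiratory chain, and this difference between depots was not tested. Several leading lower genes of epididymal fat were lower in inguinal fat too, without a call. Cldn5 was at -1.02 ± 0.32, Acaa1b at -0.81 ± 0.26, Nrarp at -0.76 ± 0.31 and Itpka at -0.65 ± 0.21. Oxtr, Ppp1r1a, Fam19a5 and Cd320 lay at -0.58 to -0.39, and Irx3 and Glt28d2 at -0.000694 and 0.0236. None of these genes was called in the depot test that follows. In the test of the depots against each other, with mouse as a block, 8 of 14749 genes (0.0542%) were called. Higher in the epididymal difference were Mmp12 (6.91 ± 1.376), Itgax (4.06 ± 0.76), Clec7a (2.63 ± 0.56), Lctl (1.22 ± 0.26) and Cyb5r4 (1.03 ± 0.16). Among the 3 lower were Abat (-1.51 ± 0.28), which breaks down the transmitter GABA, and Zzz3 (-0.37 ± 0.08). Lctl, Abat and Zzz3 had no call in epididymal fat itself (edgeR, adjusted p = 0.0915, 0.096 and 0.53). Their means in lean and regression mice were 30.7 and 51.2, 77.5 and 56.3, and 67.0 and 63.7 CPM there. In inguinal fat they were 57.8 and 42.1, 12.6 and 25.9, and 49.0 and 60.2 CPM. Cyb5r4, a cytochrome b5 reductase, was 7.28 to 11.6 CPM in lean mice and 17.9, 21.4, 13.4, 19.3, 17.4 and 13.2 CPM in regression mice in epididymal fat (0.85 ± 0.14, adjusted p = 0.000482; 0.0216 with duct terms), and at -0.18 in inguinal fat. It was above the lean range in all 6 mice, and its depot call (adjusted p = 0.00166) was the 1 among those named that was kept with each mouse left out (highest adjusted p = 0.0159). The other 6 named here lost the call in 3 to 9 of 12 fits, with a highest adjusted p of 0.0907 for Itgax, Mmp12 and Abat, 0.159 for Lctl and Zzz3, each without regression replicate 5, and 0.171 for Clec7a, without regression replicate 1. The count of 8 was itself unsteady, with 867 genes without regression replicate 3, 147 without 6, 32 without lean replicate 4, 1 without lean replicate 5 or regression replicate 1 or 5, 3 without lean replicate 1 and 4 without lean replicate 2 or regression replicate 2.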

How the data were processed

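RNA of epididymal fat was measured in 12 mice by paired-end sequencing of poly(A) libraries. The authors deposited counts per gene symbol, and per the submitters' processing notes their tools were DESeq2 1.38.3, R 4.2.2 and STAR 2.4.1c, with the build mm10. For the program that counted reads, its annotation and its strand setting: not given in the sources used here. A table of the authors' own comparisons holds a mean signal, log2 fold changes, a score (the Wald statistic) and p-values; the authors' deposited table called 1761 genes higher and 988 lower at 12 weeks, and 1548 and 643 of the calls made here were shared.

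Counts were tested with edgeR 4.0.16 (R 4.3.3), using TMM scaling, filterByExpr and the quasi-likelihood test with Benjamini-Hochberg adjustment, over all 47 epididymal libraries with 1 mean per group, which share 1 estimate of the spread. The depot test used 94 libraries with mouse as a block. DESeq2 1.42.0 and limma 3.58.1 served alternatives. List levels by mouse used log2(CPM + 1). The tests were tested on simulated data. Replicate libraries differed beyond counting noise (lowest chi-square per degree of freedom 7.71), so none was counted as a repeat. Replicate numbers did not pair mice: 1 of 6 same-numbered correlations was above 0.1 (-0.319 to 0.304). Positions are from GENCODE M21 on mm10, for 13845 genes.

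The members and lists were chosen with earlier results of these data known. Genes named are the 10 largest called differences each way whose groups do not overlap, at a mean of at least 5 CPM with a standard symbol, a panel of markers, the 3 smallest p of each list with at least 3 calls, and the 5 largest differences of differences each way. Genes of the panel are named whatever their values. A few genes that the rule names are not reported here.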

Additional observations from a re-analysis of the deposited data

Results flagged for a closer look

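In 20 of 316 groups of 6 mice tested, 1 mouse lay apart from the other 5 by Dixon's 95% criterion. Chance gives about 1 in 20 such groups. Regression replicate 3 accounted for 7 of them. It had the highest level of its group for Foxj1 (238 CPM) and Dnah5 (32.5 CPM), of motile cilia, and for Smcp (0.597 CPM), Prm2 (1.79 CPM) and Tnp2 (1.49 CPM), of sperm. It was also highest for Abat (86.1 CPM) and lowest for Nfe2l2 (106.0 CPM). Lean replicate 6 was highest for Oxtr (146 CPM), Zap70 (2.29 CPM), Nkg7 (1.64 CPM) and H2-Aa (247 CPM). Lean replicate 4 was highest for Jchain (82.9 CPM) and Ms4a1 (6.31 CPM), both of the B cell lineage. Lean replicate 3 was highest for Il1rn (1.77 CPM) and Cd320 (54.8 CPM), lean replicate 2 for Ucp1 (1.48 CPM), and lean replicate 5 lowest for Cxcr3 (1.39 CPM). Akr1b7, a gene of the vas deferens, stood at 94.04 CPM in lean replicate 1 and at 0.107 CPM in regression replicate 5, where the other regression mice were lower still. H2-Q10 was highest in regression replicate 6 (82.6 CPM).

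The difference at 12 weeks was not the same in the 2 depots for 8 genes by edgeR's test of the epididymal minus the inguinal difference, on the log2 scale. Among them were Itgax (4.06), Mmp12 (6.91), Clec7a (2.63), Lctl (1.22) and Cyb5r4 (1.03), and on the lower side Abat (-1.51) and Zzz3 (-0.37).

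Among the genes named, the 12-week difference was lower than that of obesity, by edgeR's test of the difference itself, for Oxtr (-3.49), Cldn5 (-1.62), Acaa1b (-1.20), Irx3 (-1.45), Lep (-2.44), Sfrp5 (-3.09), Plin5 (-1.63), Abat (-1.11), Slc5a7 (-3.92), Tph2 (-4.42) and Gpr50 (-5.91). It was higher for Elovl6 (3.82), Acly (2.82), Hsd11b1 (2.87), Cpa3 (1.52), Cdkn1b (0.60), Jak2 (0.44), Alb (3.13) and H2-Q10 (2.86). The calls of Cdkn1b and Jak2 were lost in 12 and 13 of 17 fits that left out a mouse (highest adjusted p = 0.13 and 0.132). For Akr1b7 the fitted value of -19.80 sets groups at or near 0 against single mice with vas deferens RNA, depends on the prior count and is no bound.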

How the results depend on the processing

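At 12 weeks 2195 genes were called by edgeR, 1549 higher and 646 lower. With the duct and vas deferens signals as terms there were 382 (3545 genes at an unadjusted p under 0.05). Replicates 1 to 3 of each group fitted apart gave 672, and replicates 4 to 6 gave 1 (3085 at an unadjusted p under 0.05). Leaving out 1 mouse gave 1280 to 4253. DESeq2 gave 2788. A limma fit with a random block for the run of mouse numbers gave 2598, with 49.2% of calls higher against 70.6% by edgeR. Method and block both changed there, so their parts in that shift cannot be told apart. With a replicate block, which the check of pairing does not support, there were 2332. For the difference from obesity, 333 genes were called, 520 by DESeq2, 315 with the replicate block and 237 to 390 with 1 mouse left out. For the depots, 8 genes were called, 3 from the compared groups alone, 99 by limma with mouse as a random block and 1 to 867 with 1 mouse left out. Of the genes named by rule, none called at 12 weeks changed the sign of its 12-week difference under these alternatives. Over all genes 3 of the 646 genes called lower changed sign with duct terms. Duct RNA limits what can be said of genes that ducts also express, and of any gene that splits these 12 mice much as Foxj1 does. With duct terms the T cell calls went from 15 to 1 and the MHC class I calls from 10 to 0.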
